A study of Mus musculus with 6 samples.

Results

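Calb1, Gatm, Cpa1, Tulp2, Ass1 and Nefm are 6 protein-coding genes, of 31053 genes listed, that were followed here across all cell types of the developing mouse ovary and of its counterpart grown in culture. They were taken by gene symbol, having been selected on 2 measured values, a low level in the induced stroma or early expression in the stroma of the embryo. Both patterns are therefore given as descriptions, without a test. Each group gave 1 library of single cells, made with the Chromium 3′ v2 kit. The first group, Induced D6, was gonad somatic cells made from 129svj x C57BL/6J embryonic stem cells. These had been grown as aggregates in 3 steps of 2 days, first in CHIR, BMP4 and EGF, then in BMP4, retinoic acid, PD0325901, SHH and EGF, and last in BMP4 and FGF9. The other 5 groups were XX gonads of ICR embryos taken at E10.5, E11.5, E12.5, E13.5 or E14.5, where E counts embryonic days. No library had a replicate, and culture, mouse strain and library cannot be told apart. The records of the E13.5 and E14.5 libraries were registered later than those of the other 4, and the sources used here do not say whether they were also made later. Every interval below is a 95% interval for counting error only, exact Poisson for a level, Clopper-Pearson for a share of cells and conditional binomial for a ratio. A level is the summed unique molecular identifier (UMI) count of a gene in a class of cells scaled to all UMIs of that class and given as CPM. CPM is not scaled for gene length, so each gene is compared with itself only.

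After filtering there were 7067 Induced D6 cells, against 5946, 2661, 3165, 4399 and 4160 cells in the E10.5 through E14.5 libraries. The deposited libraries held 37606947 to 52146419 UMIs. Between 16 and 67 cell barcodes were shared by any pair of libraries, at most 1.61% of the smaller one. Clusters were named from marker genes alone. The stroma-like class held 2004 Induced D6 cells, against 746, 402, 743 and 1043 cells in the E11.5 through E14.5 libraries. At E10.5 no cluster took that name, although 1153 cells in 4 unnamed clusters had stroma as their best marker set. Cells in unnamed clusters made up 22.5% of Induced D6, against 39.4%, 2.44%, 9.23%, 1.36% and 14.6% in the E10.5 through E14.5 libraries. Nr2f2 and Tcf21 took part in that naming, so their levels describe the class and do not check it. Nr2f2, a nuclear receptor of interstitial cells, was at 428 CPM in Induced D6 stroma-like cells, against 430, 421, 393 and 335 CPM in E11.5 through E14.5 stroma. Tcf21, a mesenchymal transcription factor, was at 217 CPM in Induced D6, against 231, 313, 321 and 329 CPM.

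The fetal ovary is built from supporting cells, which become granulosa cells around the germ cells, from a surface epithelium, and from stroma, the mesenchyme between them that later gives rise to theca and interstitial cells. The 6 genes do not form a pathway. Calb1 encodes calbindin-D28k, a cytosolic protein with EF hands that buffers calcium and is well known from the kidney tubule and from neurons. Gatm encodes the enzyme that makes guanidinoacetate from arginine and glycine, the first step of creatine synthesis. Ass1 encodes argininosuccinate synthase, which joins citrulline and aspartate on the way to arginine. Cpa1 encodes carboxypeptidase A1, best known as a digestive zymogen of the pancreas. Tulp2 belongs to the tubby-like proteins, and Nefm encodes the medium subunit of neurofilaments, the intermediate filaments of axons.

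Only part of the set was low in cultured stroma at every stage. Calb1 and Cpa1 were far lower in Induced D6 stroma-like cells than at E11.5 and E12.5, and the E14.5 stroma of the embryo was low in both too, at 2.55 and 5.71 CPM. Gatm, Ass1 and Tulp2 were lower in Induced D6 than at each of the 4 stages with a stroma-like class. Nefm was not missing in culture, and its level in Induced D6 stroma-like cells was above that of the E13.5 and E14.5 stroma. The set is therefore called by its gene names below.

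Calb1 showed the sharpest pattern. Its level in stroma-like cells was 4.64 CPM (3.47 to 6.09) in Induced D6. In the embryo it was 108 CPM (101 to 115) in E11.5 stroma, 253 CPM (235 to 272) in E12.5 stroma, 8.40 CPM (6.13 to 11.2) in E13.5 stroma and 2.55 CPM (1.49 to 4.09) in E14.5 stroma. The E11.5 and E12.5 libraries were high and the other 3 low. Induced D6 was 23.3-fold lower than E11.5 (17.6 to 31.4) and 54.4-fold lower than E12.5 (41.0 to 73.6). It was 1.81-fold lower than E13.5 (1.19 to 2.75) and 1.82-fold higher than E14.5 (1.03 to 3.35). Within the embryo the E14.5 level was 42.4-fold below the E11.5 level (26.3 to 73.0), and 5.28- to 42.4-fold below it over 9 settings, the smallest value coming from a gate on 3 marker genes in place of clusters. The low values against E13.5 and E14.5 had no fixed direction, since the Induced D6 ratio ran between 0.0518 and 1.18 for E13.5 and between 0.131 and 1.82 for E14.5 over the same settings.

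Gatm and Ass1, 2 enzymes of arginine metabolism, behaved alike in the stroma and unlike Calb1. Gatm was at 9.01 CPM (7.34 to 10.95) in Induced D6, against 34.3, 90.7, 90.3 and 71.0 CPM in E11.5 through E14.5 stroma. Ass1 was at 7.85 CPM (6.30 to 9.68) in Induced D6, against 22.8, 61.4, 59.0 and 51.9 CPM in the same order. Both were higher at E13.5 and E14.5 than at E11.5, whereas Calb1 was lower at those later stages. Over the successive stages Gatm was 3.81-fold (3.02 to 4.83), 10.1-fold (7.97 to 12.8), 10.0-fold (8.07 to 12.54) and 7.88-fold (6.34 to 9.87) lower in Induced D6. For Ass1 these values were 2.90-fold (2.24 to 3.78), 7.82-fold (6.02 to 10.2), 7.51-fold (5.91 to 9.62) and 6.61-fold (5.22 to 8.46). From one end of the embryonic series to the other, the E14.5 level was 2.07-fold above E11.5 for Gatm (1.78 to 2.41) and 2.28-fold above it for Ass1 (1.90 to 2.74).

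Cpa1 was, like Calb1, highest at E11.5 and E12.5 and low at E14.5. It was at 7.14 CPM (5.66 to 8.89) in Induced D6, against 78.7, 155 and 35.3 CPM in E11.5, E12.5 and E13.5 stroma and 5.71 CPM (4.04 to 7.83) in E14.5 stroma. Induced D6 was thus 11-fold lower than E11.5 (8.72 to 14.1), 21.7-fold lower than E12.5 (17.1 to 27.9) and 4.94-fold lower than E13.5 (3.78 to 6.50), and the interval of its ratio to E14.5 spanned equality, at 1.25 (0.841 to 1.89). That ratio ran between 0.351 and 1.31 over 9 settings. Tulp2 was at 16.9 CPM (14.55 to 19.5) in Induced D6, against 53.7, 102, 53.0 and 35.3 CPM in E11.5 through E14.5 stroma. At E12.5, though not at every stage, its difference was the smallest of the 5 genes that were lower in culture. It was 3.18-fold (2.68 to 3.79), 6.04-fold (5.01 to 7.29), 3.14-fold (2.60 to 3.8) and 2.09-fold (1.72 to 2.55) lower in Induced D6 than at the successive stages.

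Nefm differed from the other 5. It was at 29.3 CPM (26.2 to 32.6) in Induced D6. In the embryo it was at 59.4 CPM (54.3 to 65.0) in E11.5 stroma, 18.5 CPM (13.9 to 24.2) in E12.5 stroma, 1.12 CPM (0.411 to 2.44) in E13.5 stroma and 1.35 CPM (0.618 to 2.57) in E14.5 stroma. The induced cells lay below the E11.5 stroma and clear of the last 2 stages. Induced D6 was 2.03-fold lower than E11.5 (1.76 to 2.34) and 1.58-fold higher than E12.5 (1.18 to 2.16). The direction against E12.5 turned under the stricter cell filter described below, with a ratio of 0.42. In the class without its Pdgfra-led cluster that ratio was 0.79, with an interval that spanned equality (0.585 to 1.09). Induced D6 was 26.1-fold higher than E13.5 (11.9 to 71.8) and 21.7-fold higher than E14.5 (11.3 to 47.8), where only 6 and 9 UMIs were counted.

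**Figure D1:**
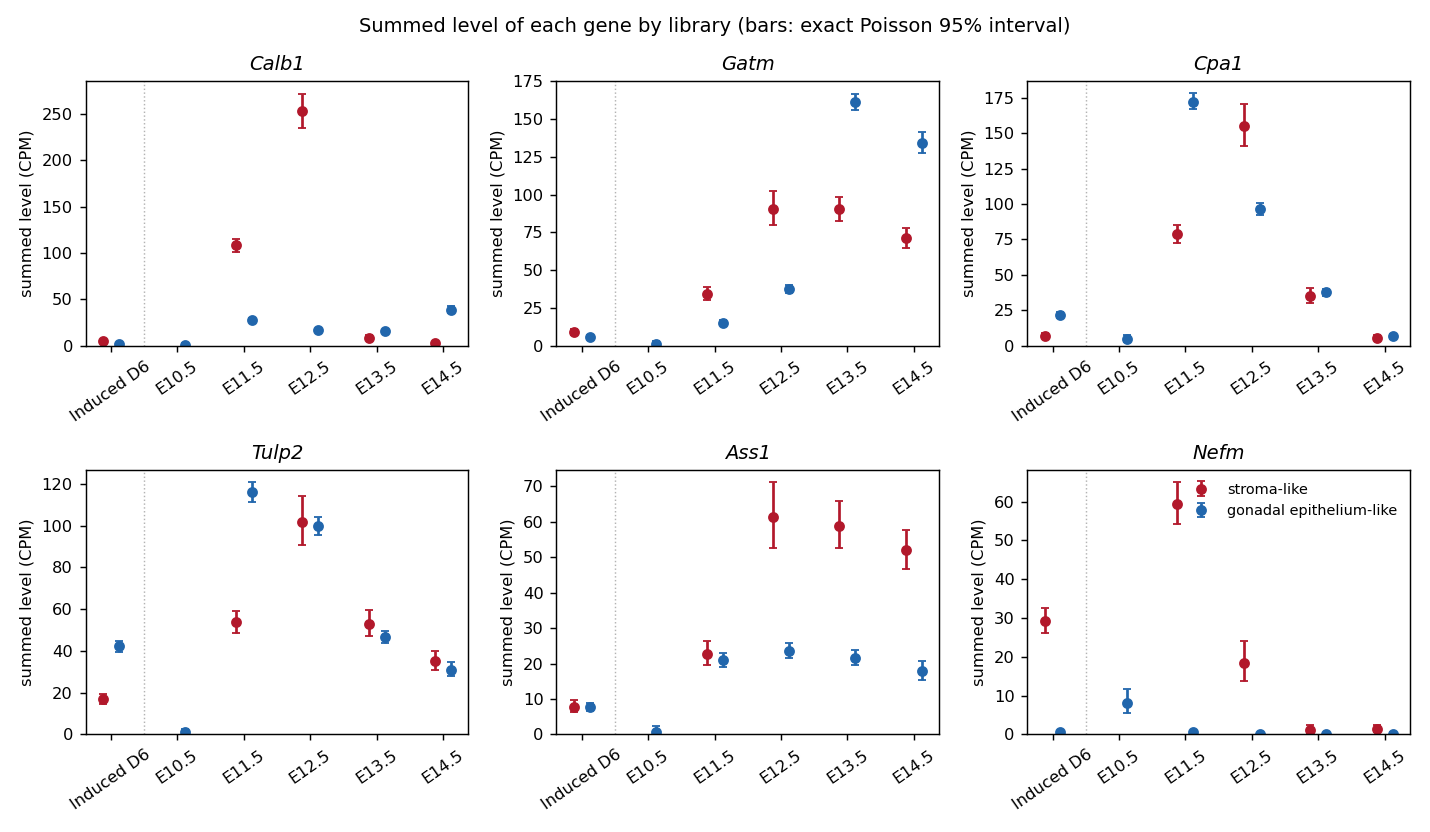
Level (CPM) of each gene in the stroma-like (red) and gonadal-epithelium-like (blue) cells of each library, with exact Poisson 95% intervals. Calb1 stands out at E11.5 (108 CPM) and E12.5 (253 CPM) in red, Gatm and Ass1 keep their stromal level to E14.5 (71.0 and 51.9 CPM), and Nefm is at 29.3 CPM in the Induced D6 stroma.

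The genes lie on 5 chromosomes of the GRCm38 build. Calb1 spans chr4:15881264-15908064, Gatm chr2:122594467-122611303 (minus strand), Cpa1 chr6:30639218-30645363, Tulp2 chr7:45481877-45523632, Ass1 chr2:31470207-31520672 and Nefm chr14:68082590-68124846 (minus strand). Nefl lies inside the annotated span of Nefm on the opposite strand, and Dhdh, Nucb1, Ppp1r15a and Gm45808 overlap Tulp2 on the opposite strand. The strand setting of the counting is not given in the sources used here, so the Nefm and Tulp2 values are uncertain where those genes overlap. Promoters (RefSeq, GRCm38.p6, 250 bases before to 50 after the start) are shown for the 4 genes with an entry in the table, because the levels of Cpa1 and Tulp2 moved alike while Gatm and Ass1 kept their stromal level to E14.5. Capitals mark matches on either strand to the TATA box TATAAA, the nuclear receptor half-site AGGTCA, its longer form AAGGTCA that contains it, the GATA motif AGATAA, the homeodomain motif TAATTA, the E-box CAGCTG and the GC box CCGCCC.
Cpa1, chr6:30638968-30639267, plus strand: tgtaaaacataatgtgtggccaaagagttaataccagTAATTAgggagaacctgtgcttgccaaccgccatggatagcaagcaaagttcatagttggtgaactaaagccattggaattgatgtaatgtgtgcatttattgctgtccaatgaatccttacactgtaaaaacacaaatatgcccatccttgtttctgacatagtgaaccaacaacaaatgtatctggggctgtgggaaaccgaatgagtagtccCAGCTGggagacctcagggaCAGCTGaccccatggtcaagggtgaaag
Tulp2, chr7:45486012-45486311, plus strand: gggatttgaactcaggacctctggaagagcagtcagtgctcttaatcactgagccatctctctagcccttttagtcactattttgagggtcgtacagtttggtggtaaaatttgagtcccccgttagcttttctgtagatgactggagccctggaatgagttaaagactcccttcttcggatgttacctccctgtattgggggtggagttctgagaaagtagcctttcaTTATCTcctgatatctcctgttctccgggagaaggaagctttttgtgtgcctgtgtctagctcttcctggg
Gatm, chr2:122611228-122611527, minus strand: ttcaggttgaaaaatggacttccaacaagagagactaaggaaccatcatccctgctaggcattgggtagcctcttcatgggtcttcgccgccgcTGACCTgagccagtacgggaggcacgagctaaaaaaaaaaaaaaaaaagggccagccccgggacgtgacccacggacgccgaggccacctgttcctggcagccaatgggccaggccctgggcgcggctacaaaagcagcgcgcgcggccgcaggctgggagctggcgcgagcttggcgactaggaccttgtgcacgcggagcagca
Ass1, chr2:31470020-31470319, plus strand: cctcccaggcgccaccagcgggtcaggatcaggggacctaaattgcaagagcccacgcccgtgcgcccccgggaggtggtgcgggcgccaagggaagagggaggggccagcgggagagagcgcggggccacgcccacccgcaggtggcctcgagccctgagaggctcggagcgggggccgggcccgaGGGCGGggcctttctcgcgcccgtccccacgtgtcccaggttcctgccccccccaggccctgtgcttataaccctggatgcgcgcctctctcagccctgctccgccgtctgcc

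The Cpa1 window held TAATTA, found in 5.29% of 32851 promoters of this length, and 2 copies of CAGCTG, found at least once in 16.3%. The Tulp2 window held AGATAA (11.2% of promoters), and the table lists 2 other starts for this gene. The Gatm window held AGGTCA (16.3%) and the Ass1 window CCGCCC (35.7%). TATAAA is in 13.6% and AAGGTCA in 4.72% of promoters, and neither is in these 4 windows. No motif was common to the printed Cpa1 and Tulp2 windows, but another listed start of Tulp2 (chr7:45513456-45513755) held CAGCTG once and TATAAA at 2 places. Their GC content was 43.7% for Cpa1, 47.3% for Tulp2, 60.7% for Gatm and 74% for Ass1, beside a median of 52.7%. A match is a run of letters and not a measured site.

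Against all genes, a call here means at least 4-fold lower among genes at 50 CPM or more in either of the compared stroma-like classes, with no error model. Against E11.5, 2 of the 4 members at that level were called, Calb1 and Cpa1, where 0.604% of the 3475 genes were. Against E12.5, 5 of 5 were called, every member except Nefm, where 0.657% of 3350 genes were. Gatm and Ass1 were the 2 called of 3 against E13.5 (0.8% of 3249 genes) and the 2 called of 2 against E14.5 (0.769% of 3251 genes). These comparisons share the Induced D6 library and chose the genes, so nothing is read from the shares. At that level 0 members were at least 4-fold higher against any of the 4 stages, where 1.5%, 2.6%, 2.8% and 2.4% of all genes were. None could be, because the members counted reached 50 CPM only in the embryo. For E14.5 against E11.5, Calb1, Cpa1 and Nefm were 3 called of 6, where 1.06% of 3204 genes were at least 4-fold lower, and 0 were called higher, where 0.905% were. The median log2 ratio of all genes was -0.0057, 0.18, 0.42 and 0.44 for Induced D6 over the successive stages, and -0.40 for E14.5 over E11.5. The members' own log2 ratios in Induced D6 over E12.5 were -5.77 for Calb1, -4.44 for Cpa1, -3.33 for Gatm, -2.97 for Ass1, -2.59 for Tulp2 and 0.66 for Nefm.

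The E12.5 comparison rested on which clusters entered the class. The E12.5 class was made of cluster 7 (231 cells) and cluster 2 (171 cells). With cells kept only at 1000 or more detected genes and at most 5% mitochondrial UMIs, the E12.5 class shrank to 127 cells and 0 of the members were at least 4-fold lower. The direction then turned for 4 genes, with ratios of 3.55 for Calb1, 1.79 for Cpa1, 2.89 for Tulp2 and 2.81 for Ass1. Under that filter 207 of the 231 cells of cluster 7 and 38 of the 171 cells of cluster 2 fell in clusters without a name, and those cells held Calb1 at 327 and 455 CPM. The 126 cells of cluster 2 that remained stroma-like held it at 1.42 CPM. The low E12.5 value under that filter thus came with the loss of the Calb1-bearing cells from the class. Likewise, Induced D6 cluster 6, described below, was mostly unnamed at Leiden resolutions of 0.5 (499 of 555 cells) and 2 (538 cells), with the members used for clustering (538 cells) and with likely doublets kept (534 cells). The levels in whole libraries, which depend on no cluster, are therefore given next. Over all kept cells Calb1 was at 2.48 CPM in Induced D6, against 15.5, 37.3, 32.5, 8.10 and 21.7 CPM in the E10.5 through E14.5 libraries. It was the lowest of the 6 libraries, 15-fold lower than E11.5 (12.4 to 18.4) and 13.1-fold lower than E12.5 (10.8 to 16).

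Over whole libraries Gatm was at 9.95 CPM in Induced D6, against 10.6, 18.6, 32.9, 83.5 and 67.0 CPM in the E10.5 through E14.5 libraries. Ass1 was at 11.4 CPM in Induced D6, against 10.2, 21.0, 25.6, 21.7 and 19.9 CPM. In both, Induced D6 sat beside E10.5 and below the 4 later stages. Cpa1 was at 18.3 CPM in Induced D6, against 2.65, 109, 66.9, 21.1 and 5.26 CPM, and Tulp2 was at 29.7 CPM in Induced D6, against 0.984, 74.1, 65.6, 27.3 and 21.8 CPM. Both therefore lay near their E13.5 level in culture and above their E10.5 level. Nefm was at 7.80 CPM in Induced D6, against 78.5, 13.1, 1.77, 0.205 and 0.60 CPM. At 50 CPM or more in either library, the members called at least 4-fold lower were Nefm against E10.5 (1 of 1, with 2.04% of all genes), Cpa1 against E11.5 (1 of 2, 1.32%), 0 of 2 against E12.5 (1.36%), and Gatm against E13.5 (1 of 1, 2.83%) and E14.5 (1 of 1, 4.14%). The members counted here reached 50 CPM only in the embryo, so they could be called lower or not at all, and nothing is read from these shares. In whole-library sums, fewer cells of a type and less RNA per cell cannot be told apart.

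Within the stroma-like class the genes marked different cells. In each of Induced D6, E11.5 and E12.5, 1 stroma-like cluster had Pdgfra, the receptor for PDGF ligands on mesenchyme, among its 10 leading genes, beside Robo2 and Mfge8. These were Induced D6 cluster 6 (555 cells), E11.5 cluster 4 (294 cells) and E12.5 cluster 7 (231 cells). Pdgfra was not restricted to them. It was at 108 CPM in the Induced D6 one, against 158 CPM at E11.5 and 146 CPM (130 to 165) at E12.5. In the rest of the class it was at 87.5 CPM in Induced D6, against 74.5 CPM at E11.5 and 124 CPM (103 to 148) at E12.5. Calb1 was at 11.8 CPM (8.33 to 16.3) in the Pdgfra-led Induced D6 cluster, against 233 CPM (215 to 251) at E11.5 and 317 CPM (292 to 344) at E12.5. Cpa1 was at 16.9 CPM there in Induced D6, against 201 and 232 CPM, and Tulp2 was at 46.7 CPM, against 92.8 and 145 CPM. Gatm was at 21.7 CPM in Induced D6, against 66.3 and 101 CPM, and Ass1 was at 13.7 CPM, against 48.1 and 80.6 CPM. For these 5 genes the Pdgfra-led cluster was the highest stroma-like cluster of its library. Nefm was at or near its lowest there, with 3, 11 and 3 UMIs.

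Setting only these Pdgfra-led clusters side by side, an alternative chosen after the data were seen, left Calb1 19.7-fold lower in Induced D6 than at E11.5 (14.1 to 28.2) and 26.8-fold lower than at E12.5 (19.2 to 38.5). Cpa1 was 11.9-fold (8.96 to 16.1) and 13.7-fold (10.3 to 18.6) lower. Gatm was 3.05-fold (2.30 to 4.08) and 4.66-fold (3.52 to 6.24) lower, Ass1 was 3.50-fold (2.47 to 5.05) and 5.86-fold (4.16 to 8.43) lower, and Tulp2 was 1.99-fold (1.62 to 2.45) and 3.10-fold (2.53 to 3.82) lower. In the rest of the class Calb1 was 21.0-fold lower in Induced D6 than at E11.5 (12.45 to 38.3) and 69.2-fold lower than at E12.5 (40.4 to 127). At E11.5 all 205 Calb1 UMIs of the rest lay in cluster 7, since cluster 5 held 0. At E12.5 the rest was cluster 2, where 38 cells held Calb1 at 455 CPM and 126 cells at 1.42 CPM, as described above, beside 1.86 CPM in the rest of the Induced D6 class. Cpa1 was under 4-fold lower in the rest, at 3.19-fold (1.98 to 5.25) against E11.5 and 2.13-fold (0.785 to 5.02) against E12.5.

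Another kind of stroma-like cluster was led by matrix genes such as Lum, Dcn and Col1a1. Nefm was high in these, at 44.9 CPM (38.9 to 51.4) in Induced D6 cluster 7 (969 cells), against 187 CPM (167 to 209) in E11.5 cluster 5 (195 cells) and 51.0 CPM (37.8 to 67.2) in E12.5 cluster 2. In these clusters Calb1 was at 0.435 CPM in Induced D6, with 2 UMIs, against 0 UMIs at E11.5, which allows up to 2.27 CPM, and 128 CPM (107 to 153) at E12.5. The Induced D6 cluster led by mitosis genes, cluster 9 (480 cells), held Calb1 at 3.73 CPM and Nefm at 34.2 CPM. Over 9069 genes, with the 6 members left out, the centred profile of Induced D6 cluster 6 was most like E11.5 cluster 4 among E11.5 clusters (Pearson r = 0.641) and E12.5 cluster 7 among E12.5 clusters (r = 0.612, against 0.602 for E12.5 cluster 2). Induced D6 cluster 7 was most like E11.5 cluster 5 (r = 0.691) and E12.5 cluster 2 (r = 0.673). Cluster 6 was as like E13.5 cluster 8 (r = 0.632), where Calb1 was at 10.6 CPM, and less like E14.5 cluster 6 (r = 0.573). These are descriptions across genes, which are not independent. Neither later stage had a Pdgfra-led cluster, although Pdgfra was at 126 CPM in E13.5 stroma and 148 CPM in E14.5 stroma. At those stages Calb1 was at most 10.6 CPM and Nefm at most 2.25 CPM in any stroma-like cluster.

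**Figure D2:**
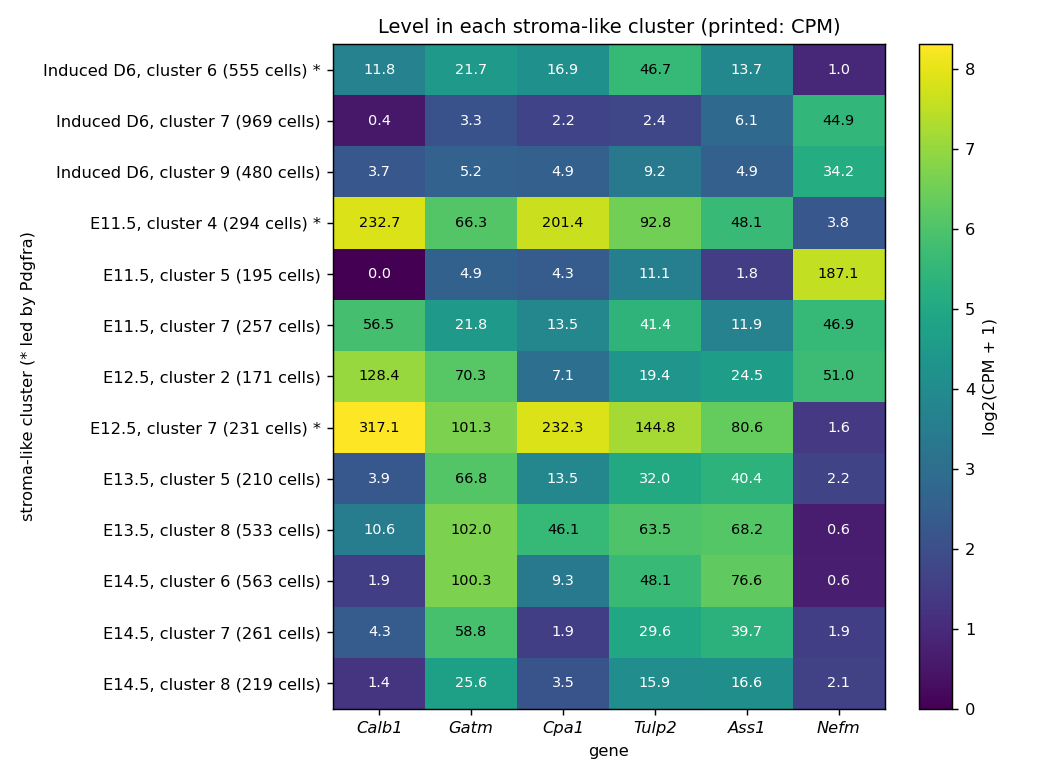
Level of each gene in each stroma-like cluster, coloured as log2(CPM + 1) with the CPM printed in the cell, and Pdgfra-led clusters starred. Calb1 and Cpa1 are bright in the starred E11.5 and E12.5 clusters (233 and 317 CPM for Calb1) and dim in the starred Induced D6 cluster (11.8 CPM), while Nefm is bright in the E11.5 cluster 5 (187 CPM).

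Markers of other cell types that use these genes were measured in the same clusters. Summed over 10 mesonephric tubule markers, the level was 8.63 CPM in Induced D6 cluster 6, against 15.1 CPM in E11.5 cluster 4 and 14.3 CPM in E12.5 cluster 7. Lhx1 was at 0 in these 3 clusters. Summed over 11 neuron markers, the level was 39.4 CPM in Induced D6 cluster 7, against 30.2 CPM in E11.5 cluster 5 and 22.4 CPM in E12.5 cluster 2, with Elavl3 and Nhlh1 at 0 in all 3. Other neuron markers were present in the stroma-like classes. Stmn2 was at 6.07 CPM in Induced D6, against 0.613 CPM at E11.5 and 0.349 CPM at E12.5. Tubb3 was at 0.179 CPM in Induced D6, against 0.490 and 0.349 CPM. The summed level of the 11 red-cell markers was 0.861 to 2.24 CPM in the Induced D6 stroma-like clusters, 77.6 to 99.0 CPM at E11.5, 35.5 and 49.95 CPM at E12.5, 222 and 224 CPM at E13.5, and 263 to 1359 CPM at E14.5. Its part in the results was not tested.

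The share of cells with a gene was also counted, alone and beside the other genes. With each cell thinned to 3000 UMIs, Calb1 was found in 1.09% of Induced D6 stroma-like cells (0.675% to 1.66%; 21 of 1930), against 12.3% (10.0% to 14.9%) in E11.5 stroma, 21.9% (17.9% to 26.4%) in E12.5 stroma, 1.76% (0.941% to 2.99%) in E13.5 stroma and 0.728% (0.293% to 1.49%) in E14.5 stroma. Without thinning these shares were 1.40% in Induced D6, against 18.1%, 29.6%, 2.96% and 1.25%. In erythroid-like and endothelium-like cells, taken as background, the thinned share was 0.781% at E11.5 (1 of 128), 0 of 73 at E12.5 (which allows a share of up to 4.93%), 1.96% (2 of 102) at E13.5 and 5.26% (5 of 95) at E14.5. At E13.5 and E14.5 the endothelium-like cells themselves held Calb1, at 9.20 CPM (21 UMIs) and 20.4 CPM (31 UMIs). At these stages they are not a clean background, so whether the stromal Calb1 share is background cannot be read from them. Erythroid-like and endothelium-like cells were not named in Induced D6, where the gonadal-epithelium-like cells had a share of 0.757%. The cells thinned out for low depth numbered 74 in Induced D6, against 7, 14, 5 and 81 in the E11.5 through E14.5 libraries. Median depth was 5329 UMIs in Induced D6 stroma-like cells, against 9449.5, 6507, 6753 and 5770 UMIs in E11.5 through E14.5 stroma. The background cells were deeper, with medians of 15380, 14775, 14844 and 9943 UMIs at those stages.

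At E11.5, Calb1 was present in 37.5% of the stroma-like cells with Gatm (24 of 64) and in 9.93% of those without (67 of 675). The shares beside Cpa1 were 30.3% with (20 of 66 cells) and lower without (71 of 673), beside Tulp2 29.5% and 9.78%, and beside Ass1 27.5% and 11.2%. At E12.5 they were 51.5% with Gatm and 15.8% without, 45.2% with Cpa1 and 19.1% without, and 36.5% with Tulp2 and 18.5% without, while for Ass1 the intervals overlapped, at 30% (17.9% to 44.6%) and 20.7% (16.5% to 25.4%). At E11.5 Calb1 and Tulp2 were rare in the cells with Nefm. Of the 70 E11.5 cells with Nefm, 0 had Calb1, where 3 cells would be 4.29% and the exact upper end is higher, against 13.6% of those without Nefm. Tulp2 was in 1.43% of the cells with Nefm and 14.1% of those without. In Induced D6 0 of the 111 cells with Nefm held Tulp2, where 3 cells would be 2.70%, against 4.01% of the cells without Nefm (3.16% to 5.02%). The exact upper end for 0 of 111 lies above that 2.70%, so no difference is read for Tulp2. The counts for Calb1, Gatm and Cpa1 were also 0 of 111, and 1.15%, 2.03% and 1.59% of the cells without Nefm held them, so a difference was not detectable at this depth. Cells of 1 library share their source, so these intervals cover counting within it.

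**Figure D3:**
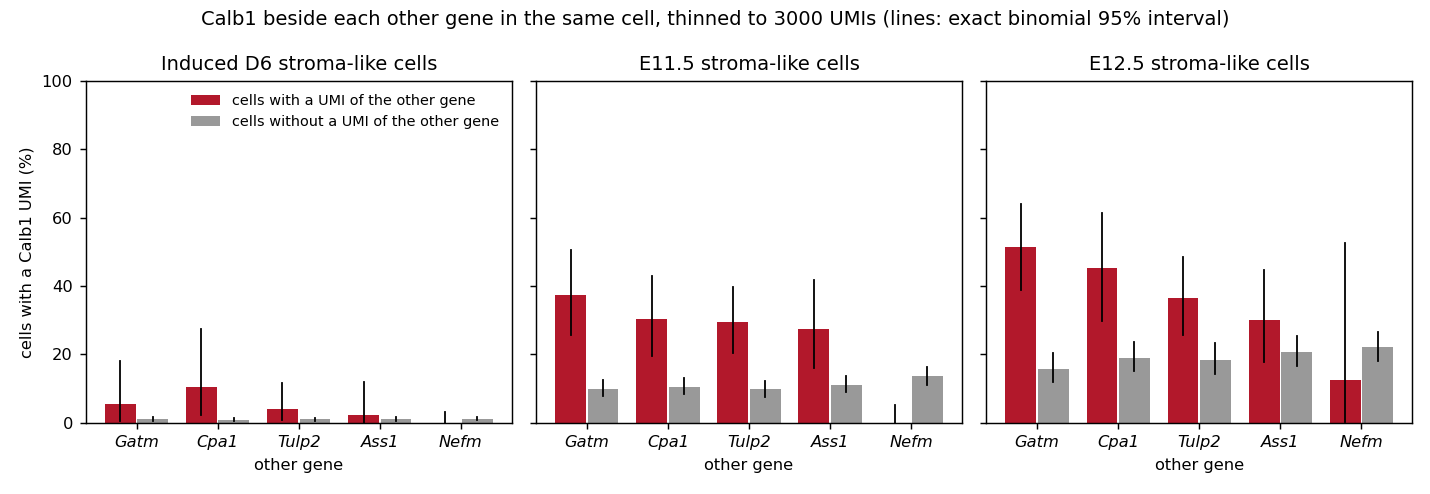
Percentage of stroma-like cells with a Calb1 UMI among cells with (red) and without (grey) a UMI of each other gene, thinned to 3000 UMIs, with exact binomial 95% intervals. At E11.5 and E12.5 the red bars for Gatm, Cpa1 and Tulp2 lie above the grey ones, and 0 of 70 E11.5 cells with Nefm held Calb1.

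Outside the stroma, the gonadal-epithelium-like class (clusters with the name of the supporting lineage, of the coelomic epithelium, or both) held 5 of the genes. Calb1 was at 2.30 CPM (1.74 to 2.99) there in Induced D6, against 1.06, 27.5, 16.6, 15.4 and 39.0 CPM in E10.5 through E14.5 epithelium. It was 12-fold lower in Induced D6 than at E11.5 (9.09 to 16) and 16.9-fold lower than at E14.5 (12.8 to 22.8). Calb1 was 15.2-fold higher in stroma-like than in gonadal-epithelium-like cells of the E12.5 library (13.4 to 17.4) and 15.3-fold lower in them at E14.5 (9.42 to 26.5). In Induced D6 the stroma-like level was 2.02-fold above the other (1.36 to 3.00). At E14.5 Calb1 was highest in supporting-lineage-like cluster 0, at 86.0 CPM, and next in unnamed cluster 1 (412 cells), at 82.3 CPM, whose best marker set was the supporting lineage.

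Gatm was higher at the later stages in the gonadal-epithelium-like cells. It was at 6.00 CPM in Induced D6, against 1.33, 15.4, 37.7, 161 and 134 CPM in E10.5 through E14.5 epithelium, so that Induced D6 was 26.9-fold below E13.5 (22.8 to 32.0) and 22.4-fold below E14.5 (18.9 to 26.8). These values leave out unnamed clusters, which held 46.1% of Gatm UMIs in Induced D6 (211 of 458), 0% at E13.5 and 9.73% at E14.5. Induced D6 clusters 10 (230 cells) and 13, unnamed but with supporting lineage as best marker set, held 54.8 and 39.9 CPM. The fold differences thus depend in part on which clusters took the name. Within the class, Gatm at E14.5 was 8.74-fold above E11.5 (7.74 to 9.90), a call made for 1.91% of 3143 genes. The E13.5 supporting-lineage-like cluster 0 alone held 460 CPM. Cpa1 was highest at E11.5 there. It was at 21.7 CPM in Induced D6, against 4.77, 172, 96.4, 37.6 and 6.56 CPM, and E14.5 was 26.3-fold below E11.5 (20.7 to 33.8), a call made for 1.85% of genes. In Induced D6 most of it came from supporting-lineage-like cluster 1, at 152 CPM, and from unnamed cluster 13 (246 cells), at 113 CPM, while cluster 11, the largest coelomic-epithelium-like cluster with 893 cells, held 0 UMIs.

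Tulp2 was spread over the epithelium. It was at 42.1 CPM in Induced D6, against 1.06, 116, 99.9, 46.7 and 31.0 CPM in E10.5 through E14.5 epithelium. Induced D6 was 39.7-fold above E10.5 (15.5 to 146, from 4 UMIs at E10.5) and 2.75-fold below E11.5 (2.56 to 2.97). Ass1 was at 7.68 CPM in Induced D6, against 0.795, 20.9, 23.5, 21.7 and 17.9 CPM. Of the Induced D6 Ass1 UMIs, 47.5% (249 of 524) lay in unnamed clusters, with cluster 15 (609 cells) at 41.0 CPM. The stroma-like level of Ass1 was 2.61-fold (2.18 to 3.10), 2.72-fold (2.34 to 3.15) and 2.90-fold (2.43 to 3.48) above the epithelium in the last 3 stages, whereas the ratio was 1.02 in Induced D6 (0.784 to 1.32) and 1.09 at E11.5 (0.914 to 1.30). Nefm was nearly restricted to stroma-like cells among these classes, 47.5-fold above the epithelium in Induced D6 (28.4 to 85.8) and 103-fold above it at E11.5 (58.6 to 201). Of the members at 50 CPM or more in either of the compared epithelium-like classes, those called at least 4-fold lower in Induced D6 epithelium were Cpa1 against E11.5 (1 of 2, with 1.44% of all genes) and E12.5 (1 of 2, 1.1%), and Gatm against E13.5 (1 of 1, 1.64%) and E14.5 (1 of 1, 2.24%). None of the members reached 50 CPM in the comparison with E10.5 (2.91%). In the other comparisons the members counted reached 50 CPM only in the embryo. They could thus be called lower or not at all, and nothing is read from these shares. Likewise, Gatm and Cpa1 in the epithelium of E14.5 against E11.5 reached that level only at the stage where each was high.

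Beyond the gonadal somatic cells, each gene had its own sites. Calb1 was at 974 CPM (897 to 1056) in the 95 mesonephric-tubule-like cells of E10.5, where 84.2% of cells held it, and these cells gave 587 of the 661 Calb1 UMIs of that library. Nefm was at 2747 and 2177 CPM in the 2 E10.5 neuron-like clusters, at 393 CPM in neural-crest-like cells and at 312 CPM in a lateral-plate-like cluster led by Barx1 and Hand2. Gatm was at 250 CPM in an E10.5 muscle-like cluster led by Mylpf and Myog, and at 567, 516 and 421 CPM in the 9, 17 and 21 leukocyte-like cells of E12.5, E13.5 and E14.5. Ass1 was at 106 CPM in an E10.5 neuron-like cluster of 30 cells and at 77.3 CPM in surface-ectoderm-like cells. Cpa1 was at 65.7 CPM in E10.5 endoderm-like cells, the lineage that forms the pancreas. The Calb1 stroma at E11.5 and E12.5 was therefore not its only site, and the unnamed E10.5 clusters with a stroma-type marker set held only 1.07 CPM (8 UMIs).

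**Figure D4:**
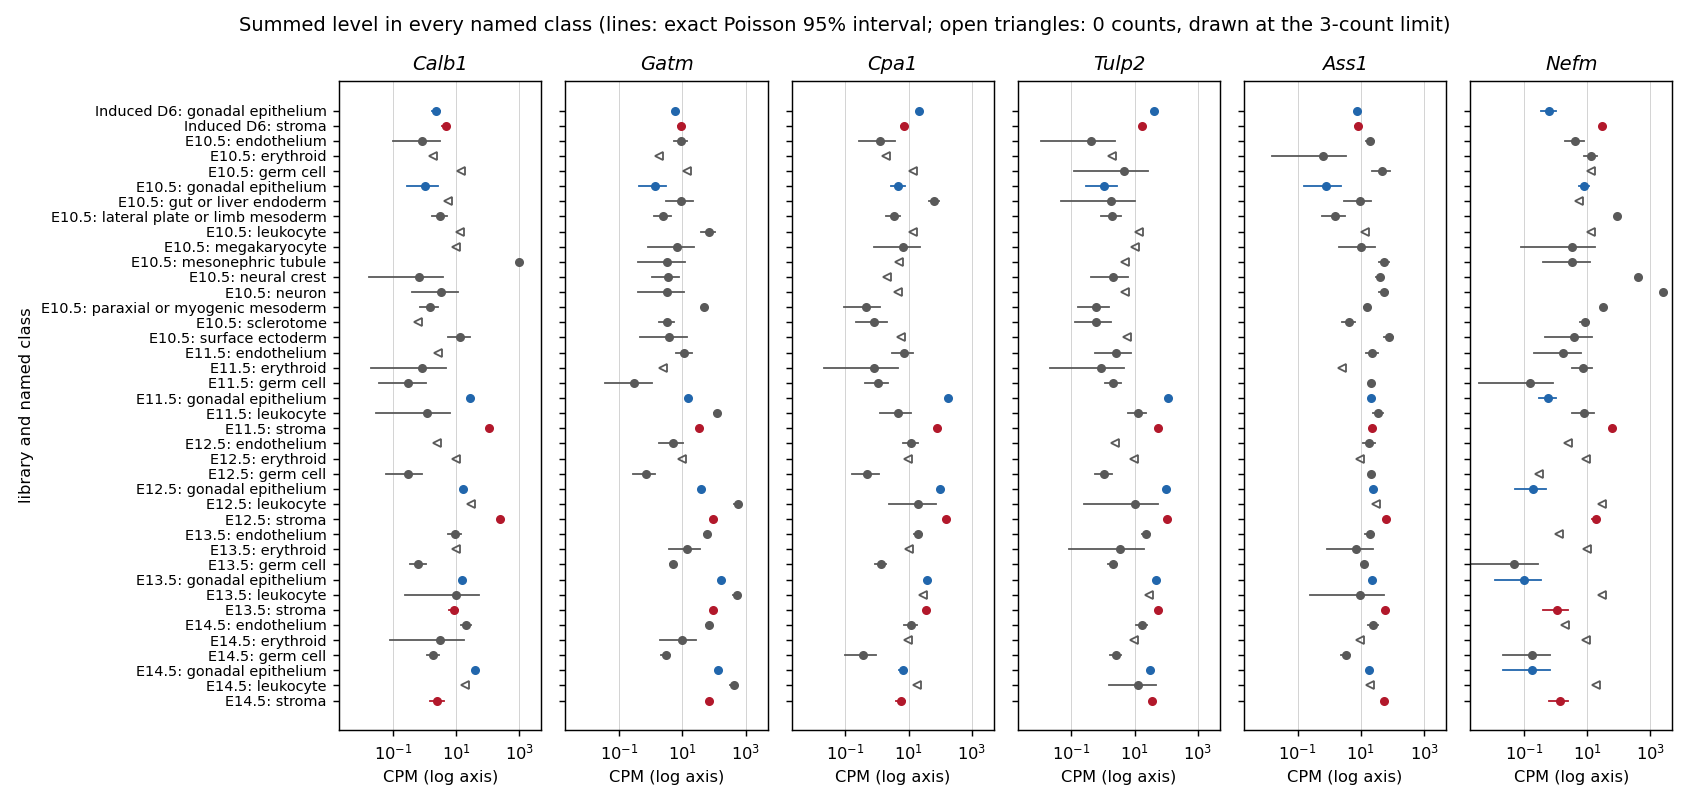
Level (CPM, log axis) of each gene in every named class of every library, stroma-like in red, gonadal-epithelium-like in blue and others in grey, with exact Poisson 95% intervals; open triangles are classes with 0 counts, drawn at the 3-count limit. Calb1 peaks in E10.5 mesonephric-tubule-like cells (974 CPM) and Nefm in E10.5 neuron-like cells, with the E11.5 and E12.5 stroma next for Calb1.

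Across 31 class sums of at least 50 cells, the level of log2(CPM + 10) of Cpa1 and Tulp2 moved most alike among the members (Pearson r = 0.836), and Gatm and Tulp2 came next (r = 0.675). Nefm had r between -0.21 and 0.14 with the other members. Among 6633 genes the nearest to Nefm was Nefl (r = 0.976), which encodes the light neurofilament subunit, followed by Dpysl4 (r = 0.900) and Isl1 (r = 0.898). The nearest to Calb1 were Gstt1 (r = 0.778), Tmem37 (r = 0.772) and Egr4 (r = 0.771), with the kidney-field factor Pax2 at r = 0.730. Cpne8 (r = 0.908) and Cpq (r = 0.854) were nearest to Cpa1, Tceal6 (r = 0.955) and Rmdn2 (r = 0.926) to Tulp2, Rin2 (r = 0.789) to Gatm, and Dpm2 (r = 0.616) to Ass1. These class sums share libraries and depth, and no p is given.

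Genes of the members' pathways were measured in the same stroma-like classes. Of 21 genes of arginine and creatine metabolism, 4 reached 50 CPM in the comparison with E12.5. Odc1, which makes putrescine from ornithine, was the 1 called at least 4-fold higher in Induced D6 (2.6% of all genes were), at 299 CPM, against 64.9 CPM at E12.5 (4.60-fold, 3.97 to 5.36), and 0 were called lower (0.657% of all genes were). The median log2 ratio of the 4 was -0.26, beside 0.18 for all genes. Gamt, which completes creatine, was at 37.3 CPM in Induced D6, against 66.5 CPM at E11.5 and 74.7 CPM at E12.5. Asl, the enzyme after Ass1, was at 10.2 CPM, against 22.2 and 17.4 CPM. Both neighbours were thus lower in culture by smaller factors than Gatm and Ass1 at E12.5, at 2.00-fold (1.69 to 2.37) and 1.71-fold (1.20 to 2.41). Ckb, a creatine kinase gene of the list, was at 23.6 CPM in Induced D6, against 73.0 CPM at E11.5 and 70.5 CPM at E12.5. It was 3.10-fold (2.68 to 3.60) and 2.99-fold (2.48 to 3.61) lower. Gatm and Ass1 were chosen for low levels in culture, so nothing is read from their larger factors.

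Of 21 digestive-type enzymes, 0 reached 50 CPM in stroma-like cells at any stage. Prss2, a trypsinogen, had 0 UMIs in every stroma-like and gonadal-epithelium-like class. Of the tubby family, Tulp3 was at 32.0 CPM in Induced D6, against 21.6 and 22.3 CPM at E11.5 and E12.5, and Tulp4 was at 46.9 CPM, against 36.4 and 39.1 CPM. These tubby genes were therefore not lower in culture. Calb2, the calretinin gene, was at 0.268 CPM in Induced D6, against at most 0.698 CPM in the embryo, and of 11 EF-hand genes 0 of 6 at 50 CPM or more were called in a stromal comparison with Induced D6, where 0.604% to 0.8% of all genes were called lower and 1.5% to 2.8% higher.

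Nefl was also present in cultured stroma. It was at 31.9 CPM in Induced D6 stroma-like cells, against 23.3, 5.93, 0.187 and 2.55 CPM in E11.5 through E14.5 stroma, and was 5.37-fold higher in Induced D6 than at E12.5 (3.31 to 9.33). Of 15 stromal regulators, 13 reached 50 CPM. Lhx9, a homeobox factor of the early gonad, was the 1 called lower against E11.5 and against E12.5, at 31.3 CPM in Induced D6, against 212 and 214 CPM (6.76-fold and 6.83-fold lower), where 0.604% and 0.657% of all genes were called. The median log2 ratio of the 13 was -0.0036 against E11.5 and -0.014 against E12.5, beside -0.0057 and 0.18 for all genes.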

How the data were processed

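The deposited matrices hold UMI counts per gene and barcode, which the authors made with Cell Ranger 3.0.2 on mm10, per the submitters' processing notes. A barcode was kept if it held 500 or more genes and no more than 10% of UMIs from mitochondria, and the highest Scrublet scores were removed (0.8% per 1000 cells). Each library was clustered alone in scanpy 1.11.5 (2000 variable genes without the 6 members, 30 components, 15 neighbours, Leiden resolution 1). Clusters were named "-like" from 21 marker sets. Counts were summed per class, and with 1 library per group no test was made. Genes at 50 CPM or more in either class were called at 4-fold. Fold calls and intervals were tested on simulated data. Beside the members, the text names the 5 genes most like each member over class sums, paralogs and the genes with the largest ratios of each pathway list, and also leading genes of clusters, Asl and Prss2, which were chosen after their values were seen. Some genes that this rule names are not reported here. Members and lists were chosen with earlier results of these data known. Gene positions are from GENCODE vM21, which matched 31011 of 31053 genes. Alternatives were TMM scaling, cell filter, doublets, resolution, variable genes, a marker gate, added clusters, fold, minimum level and thinning depth.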

Additional observations from a re-analysis of the deposited data

Results flagged for a closer look

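Calb1 was lower at E14.5 than at E11.5 in stroma-like cells and higher in gonadal-epithelium-like cells. The ratio of the E14.5 level to the E11.5 level was 0.0236 in stroma-like cells (0.0137 to 0.0380) and 1.42 in gonadal-epithelium-like cells (1.24 to 1.61). With 1 library per stage the difference between the classes was not tested.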

How the results depend on the processing

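The counts of members and of all genes at least 4-fold lower held within 1.5 times at Leiden resolution 0.5 and with unnamed stroma-type clusters added, and trimmed-mean scaling moved 1 count, to 1 member in whole libraries against E12.5, where CPM gave 0. The ratios of the members held less well. At resolution 0.5, 21 of them moved and 9 held, as also with the members used for clustering. With doublets kept 19 moved and 11 held, and 27 moved and 3 held at resolution 2. With unnamed clusters added 4 moved and 26 held. The following values also moved. At resolution 2 the members lower in stroma were 0 against E11.5 (2 before), because Calb1 and Cpa1 did not reach 50 CPM in that smaller class although Calb1 was 112-fold lower, and 1 for E14.5 against E11.5 (3 before), and all genes lower numbered 38 against E12.5, 38 against E14.5 and 54 for E14.5 against E11.5. With the members used for clustering, 1 was lower against E11.5. With doublets kept, 1 was lower against E14.5. With the marker gate in place of clusters, the members lower were 2 against E12.5, 1 against E13.5 and 1 against E14.5. With the stricter cell filter they were 0 against E12.5 and 1 against E13.5, and the Induced D6 over E12.5 ratios turned to 3.55 for Calb1, 1.79 for Cpa1, 2.89 for Tulp2 and 2.81 for Ass1, as the Calb1-bearing cells lost the stroma name there. At 2-fold, 4 members were lower against E11.5, and all genes lower numbered 131, 122, 84 and 83 against E11.5 through E14.5 and 524 for E14.5 against E11.5. With no minimum level these were 467, 342, 507, 575 and 486. In the class less its Pdgfra-led cluster, chosen after seeing the data, 0 members were called against E11.5, where Calb1 was 21.0-fold lower but at only 39.0 CPM at E11.5, and 2 against E12.5. Other causes were not tested. Against E11.5, Calb1 was 17.7- to 112-fold lower in Induced D6 over 11 settings and Gatm 3.05- to 8.74-fold lower. Over these settings Cpa1 was 3.19- to 24.7-fold lower and Tulp2 1.99- to 12.7-fold lower. Ass1 was 1.57- to 3.99-fold lower and Nefm 1.53- to 3.94-fold lower. Against E14.5 the Tulp2 ratio ran between 0.087 and 1.01 over 9 settings, and Cpa1 for E14.5 over E11.5 between 0.0616 and 0.707. No paired analysis was possible because each group has 1 library. Depth limits values near 3 UMIs, such as Nefm in the Pdgfra-led cluster of E12.5.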
